A study of Homo sapiens with 6 samples.

Results

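The interferon regulatory factors are a family of transcription factors, of which 8 genes, IRF1, IRF2, IRF3, IRF4, IRF5, IRF7, IRF8 and IRF9, were followed among the 35410 genes listed in a MACE-Seq experiment. They were selected by gene name, with earlier results of these data known. MACE-Seq reads polyadenylated transcripts from their 3′ ends, so that counts do not grow with transcript length. Derivatives of SEM, an established human B cell precursor leukemia cell line carrying KMT2A::AFF1, were compared, each with 3 biological replicates. SEM::EGR3 carried an inducible vector for EGR3, a zinc finger transcription factor of the early growth response family, and SEM::mock carried the empty vector. Both lines received doxycycline at 1 µg/mL for 48 h before RNA extraction, so that control and EGR3 libraries share the inducer and, by their label, the fusion. EGR3 is expressed from the vector, and whether either line goes back to 1 clone is not given in the sources used here. The question behind the comparison was what EGR3 overexpression does to the transcriptome of proB leukemia cells with this fusion.

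All interferon regulatory factors share a DNA-binding domain with a conserved run of tryptophans that recognizes GAAA repeats, as found in the interferon-stimulated response element (ISRE). IRF3, IRF5 and IRF7 lie latent in the cytoplasm until kinases downstream of nucleic acid sensors phosphorylate them, whereupon they drive type I interferon genes. IRF9 carries the interferon signal from the receptor to the ISRE. IRF1 is an activator and IRF2 largely a competing repressor at the same elements. IRF4 and IRF8 act in hematopoietic cells, where they bind DNA with PU.1 or SpiB at composite ETS and IRF elements (EICE), and together are required for the development of pre-B cells.

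The promoter sequences of those members that were undetected in SEM::mock are shown first, together with IRF1, because the overexpressed protein is a DNA-binding factor. RefSeq promoter windows (GRCh38.p14) covering the 250 bases before the transcription start were found for 5 of the 8 members, IRF1, IRF4, IRF5, IRF8 and IRF9. Bases lying in an exon of GENCODE release 29 are left out of the stretches below, which were IRF1 at chr5:132490799-132491023 on the minus strand, IRF4 at chr6:391502-391738, IRF5 at chr7:128937835-128937926 and IRF8 at chr16:85902580-85902688 (the first of several windows for IRF5 and IRF8, all of which lie downstream of the gene starts that GENCODE gives), the last 3 on the plus strand. The IRF9 window, not printed, also runs past the GENCODE start of that gene. They read 5′ to 3′ in the direction of the gene, and capitals mark matches to the motifs described next.
IRF1: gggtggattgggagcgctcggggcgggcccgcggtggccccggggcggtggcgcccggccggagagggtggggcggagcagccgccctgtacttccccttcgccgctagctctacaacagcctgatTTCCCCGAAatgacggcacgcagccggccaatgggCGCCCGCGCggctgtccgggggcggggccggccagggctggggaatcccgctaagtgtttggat
IRF4: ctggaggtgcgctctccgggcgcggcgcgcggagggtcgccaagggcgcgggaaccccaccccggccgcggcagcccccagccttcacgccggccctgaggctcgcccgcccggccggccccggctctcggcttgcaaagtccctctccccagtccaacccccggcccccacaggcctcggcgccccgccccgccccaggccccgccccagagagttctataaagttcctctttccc
IRF5: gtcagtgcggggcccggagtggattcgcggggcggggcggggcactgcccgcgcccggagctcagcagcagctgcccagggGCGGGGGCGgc
IRF8: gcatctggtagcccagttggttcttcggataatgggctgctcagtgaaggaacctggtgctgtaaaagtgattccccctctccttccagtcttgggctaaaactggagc

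The motifs were searched on both strands of the whole windows. The EGR motif GCGNGGGCG was present in 8.41% of all 35116 promoter windows of this length. Among the members it was matched in IRF1, where CGCCCGCGC lies 81 to 89 bases before the start on the opposite strand, and in the first of 4 IRF5 windows, where GCGGGGGCG lies 3 to 11 bases before the start. That start is the RefSeq one, and the IRF5 match lies inside the gene as GENCODE gives it. The IRF4 window holds no match to these letters. Neither do the IRF8 windows, which do not cover the bases before the GENCODE start of that gene. The STAT motif GAS, TTCNNNGAA, was present in 6.57% of all windows and was matched in IRF1 (TTCCCCGAA, 116 to 124 bases before the start) and IRF9 (TTCTGGGAA, 55 to 63 bases before the RefSeq start, which is inside the gene as GENCODE gives it). The EICE letters, GGAA and GAAA with any 2 bases between them, found in 2.41% of windows, were matched once, in the third IRF5 window as TTTCGTTTCC on the opposite strand. ISRE letters, GAAA and GAAA with any 2 bases between them, which overlap in part with EICE, were found in 3.02% of windows and in none of the 9 member windows. A match is a string of letters, and binding was not measured here.

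The libraries held between 5286115 and 6181388 counts in SEM::mock and between 7293092 and 15106018 in SEM::EGR3, so that low values are less precise in SEM::mock. Levels are given as CPM, counts per 1000000 after scaling of library totals by TMM. A gene with 3 counts or fewer in every library of a line was taken to lie at the limit of detection, which covers counting error only. Some genes above this limit were still so low in SEM::mock that they entered the test only through their SEM::EGR3 counts. A call of such a gene as higher carries little weight. EGR3 itself was counted 9768, 4952 and 5557 times in SEM::EGR3 and 8, 10 and 6 times in SEM::mock, as labelled. The test across 15465 genes placed 5640 higher and 4954 lower in SEM::EGR3, so that a call by itself is common here.

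The labelled cell type was checked against its markers. Of 14 proB markers, 10 had 3 counts or fewer in every SEM::mock library, among them the B-lineage factors PAX5 with 1, 1 and 2 counts and EBF1 with 0 in each, whereas 3 of 14, DNTT, RAG2 and BLNK, were also at this limit in SEM::EGR3. The summed level of the proB list lay between 134 and 158 CPM in SEM::mock and between 678 and 710 CPM in SEM::EGR3, with 9 members higher and 1 lower (CD24) of 10 tested. Targets of the KMT2A fusion followed the same direction, with 10 of 10 higher and summed levels of 198 to 216 against 1520 to 1627 CPM. Markers of erythroid and megakaryocytic cells were above the limit in both lines for 13 of 14 genes, GATA1 and KLF1 included, at 4889 to 5177 against 6194 to 6447 CPM. Of 13 tested, 9 were lower, among them GATA1 (log2 fold change -0.23) and KLF1 (-2.18), and 4 were higher, so that the sum and most of its members moved in opposite directions. Their part in the results below was not tested. The name proB is thus not borne out by these markers in SEM::mock. In SEM::EGR3 most of them were detected, but the erythroid and megakaryocytic sum was larger than the proB sum there too. Of the 10 fusion targets, 3 (HOXA7, HOXA9 and PROM1) were at the limit in SEM::mock and the rest above it. Whether SEM::mock carries the fusion was not tested. The lines are called by their labels only.

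**Figure D1:**
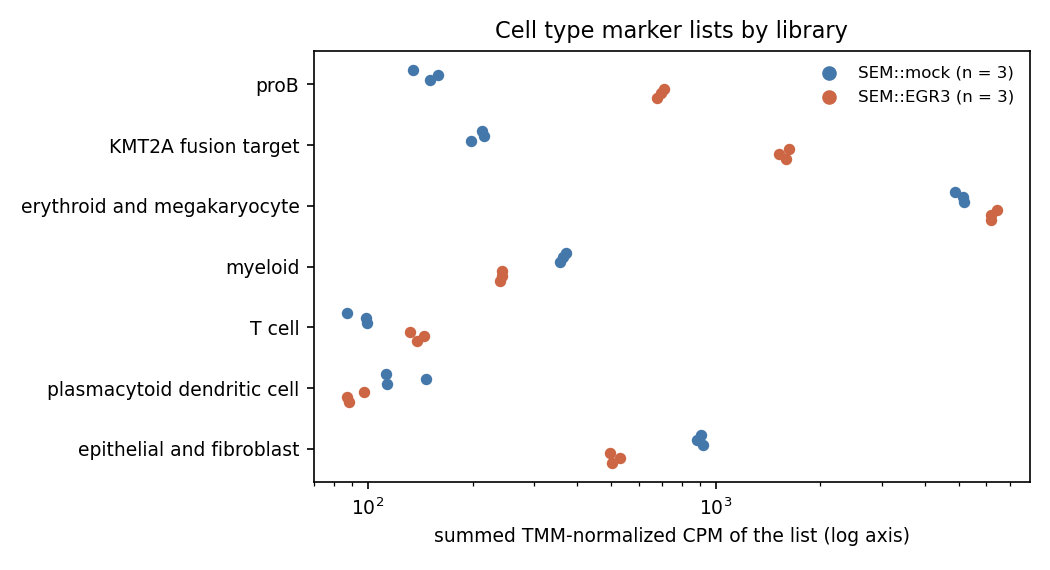
Summed TMM-normalized CPM (log axis) of 7 marker lists, 1 point per library, in blue for SEM::mock and orange for SEM::EGR3. The proB list separates the lines at 134 to 158 against 678 to 710 CPM, and the erythroid and megakaryocytic list is the most abundant one in all 6 libraries. The SEM::mock sum of the proB list comes largely from CD24 (132, 154 and 145 CPM).

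Lists of other cell types moved with the lines as well. The myeloid list, on which MPO was at 0 in every SEM::mock library and CD14 had at most 4 counts in any library, summed to 357 to 372 CPM in SEM::mock and 240 to 243 CPM in SEM::EGR3, with 2 higher and 3 lower of 6 tested. T cell markers summed to 86.9 to 99.6 against 132 to 145 CPM (3 higher and 3 lower of 6 tested, BCL11B at 2 counts or fewer in each library), and plasmacytoid dendritic cell markers to 113 to 147 against 86.7 to 97.4 CPM (1 higher and 1 lower of 3 tested), with CLEC4C and LILRA4 at 1 count or 0 in each library. Epithelial and fibroblast markers summed to 883 to 921 against 496 to 529 CPM (2 higher and 4 lower of 6 tested), with COL3A1 at 0 in each library. At the limit in SEM::mock and SEM::EGR3 were 4 and 3 of 13 myeloid genes and 6 and 3 of 11 T cell genes. For plasmacytoid dendritic cells these were 5 and 3 of 8 genes, and for epithelial and fibroblast markers 2 and 4 of 10. The sums come mostly from the other genes of each list. Of the T cell genes above the limit in both lines, 1 was higher and 3 lower. In bulk RNA, fewer cells of a type and less RNA per cell cannot be told apart.

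Of the 8 interferon regulatory factors, 7 passed the filter on low counts, and 6 of them (IRF2, IRF3, IRF4, IRF7, IRF8 and IRF9) were upregulated in SEM::EGR3 at an adjusted p under 0.05, while 36.5% of all tested genes were called higher (68.5% in either direction). None was lower, a call made for 32.0% of all tested genes. IRF1 did not pass the threshold, and IRF5 was too low to be tested. IRF4 and IRF8 passed the filter only through their SEM::EGR3 counts, so that their calls carry no weight in this count. The libraries of the lines did not overlap in IRF1, IRF2, IRF3, IRF7 and IRF9, each time with SEM::EGR3 on the higher side. This held for 37.5% of all tested genes (70.1% in either direction), genes at 0 in SEM::mock included. IRF4, IRF8 and the untested IRF5, with 0 counts in every SEM::mock library, could only lie on that side. Of the 7 tested members, 5 were called with a log2 fold change of at least 1, as were 16.7% of all tested genes. Without IRF4 and IRF8, 4 of 5 members were called higher and 3 of 5 with a log2 fold change of at least 1, beside 33.0% and 12.2% of the 14671 tested genes above the limit of detection in both lines. IRF9, at 16, 7 and 9 counts in SEM::mock, is still among these 5 and also needed its SEM::EGR3 counts to pass the filter. With at least 10 counts in every library, which leaves IRF9 out, IRF1, IRF2, IRF3 and IRF7 remained, and 3 of these 4 were called, all higher. Beside them, 8481 of 12801 genes were called in either direction, and the share called higher alone is not given for this filter. The summed level of the 8 genes was 124.8, 126.1 and 121.8 CPM in SEM::mock and 191.6, 207.6 and 193.4 CPM in SEM::EGR3, a ratio of 1.59 of the means.

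**Figure D2:**
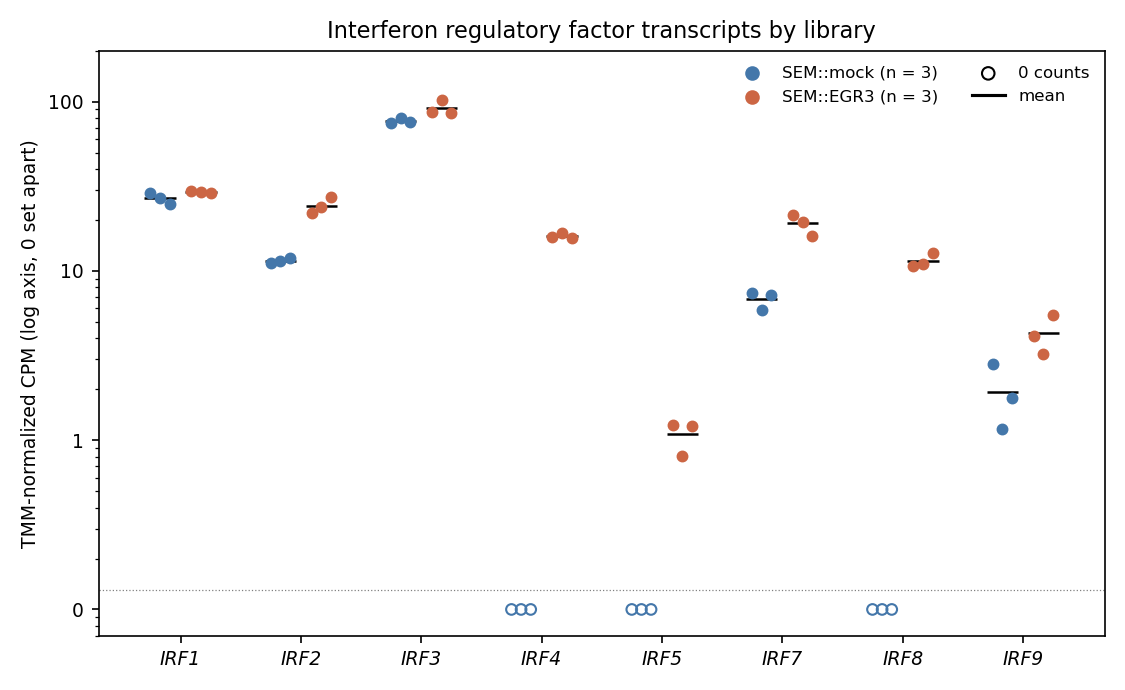
TMM-normalized CPM (log axis, with 0 set apart below the dotted line) of the 8 family members, 1 point per library and a bar at the mean of 3 libraries. IRF4, IRF5 and IRF8 are at 0 in all 3 SEM::mock libraries, and IRF3 is the most abundant member in both lines.

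IRF4, a lymphoid factor needed for pre-B cell differentiation, for plasma cells and for light chain gene activation, was detected in SEM::EGR3 only. Its gene (ENSG00000137265, chr6:391739-411447, plus strand, GRCh38) yielded no count in SEM::mock (0 in each library) and 245, 125 and 141 counts in SEM::EGR3, or 15.8, 16.8 and 15.6 CPM (16.1 ± 0.670, SD, n = 3). The SEM::EGR3 libraries lay close together although their depths differ. Against a limit of 3 counts per SEM::mock library, the level of IRF4 was higher by a factor of at least 29.8. Its adjusted p of 2.17e-14 carries no weight, since the gene passed the filter only through SEM::EGR3 and had to come out higher.

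IRF8, which acts in early B cells, monocytes and dendritic cells, followed the same pattern at a lower level. The gene (ENSG00000140968, chr16:85898803-85922609, plus strand) likewise gave 0 counts in all SEM::mock libraries and 165, 82 and 116 in SEM::EGR3, or 10.6, 11.0 and 12.8 CPM (11.5 ± 1.16, SD, n = 3). It was at least 21.3-fold higher, and its adjusted p of 7.79e-13 carries no weight for the same reason as that of IRF4. IRF4 was the more abundant of the pair in each SEM::EGR3 library, with IRF4 to IRF8 ratios of 1.48, 1.52 and 1.21. The ratio has no value in SEM::mock, where both genes were at 0, and so it could not be compared between the lines. The pattern of these members was shared by many genes, since 794 of 15465 tested genes were at the limit of detection in SEM::mock only and 0 in the deeper SEM::EGR3 libraries only.

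IRF7, the inducible amplifier of type I interferon production, had the largest fitted rise among the members detected in both lines, with an interval that overlaps those of IRF9 and IRF2. The gene (ENSG00000185507, chr11:612553-615999, minus strand) was counted 42, 35 and 37 times in SEM::mock libraries and 334, 145 and 146 times in SEM::EGR3 libraries. This corresponds to 7.42, 5.86 and 7.26 CPM (6.85 ± 0.856, SD, n = 3) against 21.5, 19.5 and 16.1 CPM (19.1 ± 2.73, SD, n = 3). The lowest SEM::EGR3 library was well above the highest SEM::mock library. The log2 fold change was 1.50 (SE 0.15, 95% interval 1.19 to 1.82, adjusted p = 4.43e-09).

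IRF3, the constitutive partner of IRF7 in the first wave of interferon induction, was the most abundant member in both lines and rose little. The gene (ENSG00000126456, chr19:49659569-49665875, minus strand) stood at 74.4, 80.6 and 76.1 CPM in SEM::mock and at 86.8, 102.9 and 85.9 CPM in SEM::EGR3, from 421, 481 and 388 counts and 1345, 764 and 777 counts. One SEM::EGR3 library, replicate 2, lay above the other two, and these in turn were close to the highest SEM::mock library. The log2 fold change of 0.24 (SE 0.07, 95% interval 0.10 to 0.39) passed the threshold at an adjusted p of 0.00433.

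The balance between IRF3 and IRF7 was read within each library, where no scaling enters. The IRF3 to IRF7 count ratio was 9.92, 13.6 and 10.4 in SEM::mock and 4.02, 5.25 and 5.31 in SEM::EGR3, without overlap. The mean log2 ratio was 1.21 lower in SEM::EGR3 (two-sided exact permutation test, p = 0.1, which is the smallest value that 3 against 3 libraries allow, and 0.1 after adjustment over 2 ratios).

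IRF5, which acts downstream of Toll-like receptors and MyD88, was near the detection limit. The gene (ENSG00000128604, chr7:128937612-128950035, plus strand) gave 0 counts in all SEM::mock libraries and 19, 6 and 11 in SEM::EGR3, or 1.23, 0.808 and 1.22 CPM (1.08 ± 0.238, SD, n = 3). It was at least 2.00-fold higher by the limit of 3 counts per library and was removed by the filter on low counts, so that it has no test in the comparison reported here.

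IRF2, the counterpart of IRF1, was upregulated. The gene (ENSG00000168310, chr4:184387713-184474580, minus strand) was counted 63, 68 and 61 times in SEM::mock and 339, 177 and 246 times in SEM::EGR3, or 11.1, 11.4 and 12.0 CPM (11.5 ± 0.425, SD, n = 3) against 21.9, 23.8 and 27.2 CPM (24.3 ± 2.69, SD, n = 3). The SEM::mock libraries were tightly grouped and none came near the SEM::EGR3 values. The log2 fold change was 1.07 (SE 0.12, 95% interval 0.81 to 1.32, adjusted p = 3.43e-08).

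IRF1, the interferon-γ induced activator of antigen presentation genes, was the one tested member that did not pass the threshold. The gene (ENSG00000125347, chr5:132481609-132490798, minus strand) was counted 164, 162 and 126 times in SEM::mock and 459, 218 and 263 times in SEM::EGR3, or 29.0, 27.1 and 24.7 CPM (26.9 ± 2.14, SD, n = 3) against 29.6, 29.4 and 29.1 CPM (29.3 ± 0.270, SD, n = 3). The SEM::EGR3 libraries all lay just above the highest SEM::mock library. The log2 fold change was 0.12 (SE 0.09, adjusted p = 0.240), with a 95% interval from -0.07 to 0.31.

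Within a library the IRF1 to IRF2 count ratio was 2.59, 2.37 and 2.06 in SEM::mock and 1.35, 1.23 and 1.07 in SEM::EGR3. IRF1 remained the more abundant of the pair throughout, by a smaller margin in each SEM::EGR3 library. The mean log2 ratio was 0.94 lower in SEM::EGR3 (two-sided exact permutation test, p = 0.1, again the smallest value possible, adjusted 0.1).

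IRF9, the DNA-binding subunit of the ISGF3 complex, was the least abundant member detected in both lines. The gene (ENSG00000213928, chr14:24161053-24166565, plus strand) was counted 16, 7 and 9 times in SEM::mock and 64, 24 and 50 times in SEM::EGR3, or 2.83, 1.17 and 1.76 CPM (1.92 ± 0.838, SD, n = 3) against 4.13, 3.23 and 5.53 CPM (4.30 ± 1.16, SD, n = 3). The highest SEM::mock library came close to the lowest SEM::EGR3 library. The log2 fold change was 1.17 (SE 0.30, 95% interval 0.55 to 1.79, adjusted p = 0.00132). IRF9 lies entirely inside AL136295.5, a gene of the same strand that is annotated as running from RNF31 into IRF9, and counts of overlapping genes are uncertain here because the handling of ambiguous reads is not given. RNF31 itself had 0 counts in SEM::mock and 1, 0 and 0 in SEM::EGR3.

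**Figure D3:**
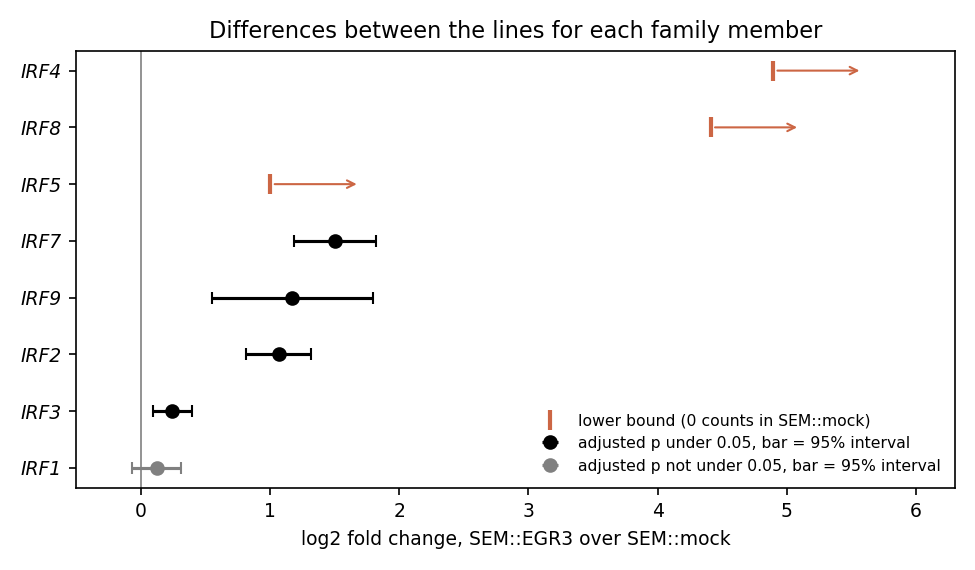
Log2 fold change of each member, SEM::EGR3 over SEM::mock, with 95% intervals (black, adjusted p under 0.05, and grey, not under 0.05). For IRF4, IRF8 and IRF5, which had 0 counts in SEM::mock, the orange mark is the lower bound (at least 29.8-fold, 21.3-fold and 2.00-fold) and the arrow gives its direction only.

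The order of levels was IRF3, IRF1, IRF2, IRF7 and IRF9 in SEM::mock, and no neighbours in this order overlapped between libraries. In SEM::EGR3 the order was IRF3, IRF1, IRF2, IRF7, IRF4, IRF8, IRF9 and IRF5. There IRF7 and IRF4 overlapped and are not separated by the spread of the libraries, whereas the other neighbours did not overlap. These orders compare 3′ end counts between genes and assume that transcripts of each gene are captured alike.

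The make-up of the family shifted accordingly. IRF3 made up 62.0% ± 2.16 (SD, n = 3) of all counts of the 8 genes in SEM::mock and 46.4% ± 2.77 in SEM::EGR3. The share of IRF1 was 21.7% ± 1.48 in SEM::mock and 14.9% ± 0.667 in SEM::EGR3. IRF7 went from 5.52% ± 0.754 to 9.67% ± 1.47 and IRF2 from 9.26% ± 0.491 to 12.3% ± 1.51. IRF4 and IRF8, not detected in SEM::mock, took 8.14% ± 0.0990 and 5.84% ± 0.697 in SEM::EGR3. IRF9 and IRF5 stayed small, at 2.19% ± 0.651 and 0.553% ± 0.141 in SEM::EGR3. Shares of a common total move against each other, so a lower share is not a lower level.

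**Figure D4:**
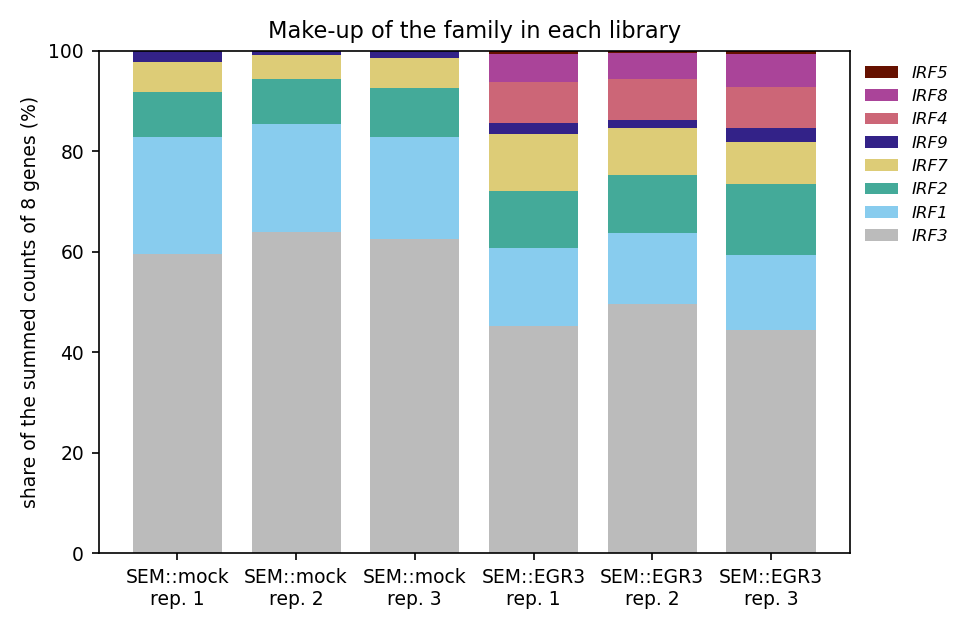
Share (%) of the summed counts of the 8 genes taken by each member, 1 bar per library. IRF3 takes 62.0% on average in SEM::mock and 46.4% in SEM::EGR3, where IRF4 (8.14%) and IRF8 (5.84%) are added.

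The tested genes with the most similar profile were named for the 5 members called with a log2 fold change of at least 1, by the smallest root mean square difference of centred log2 CPM over the 6 libraries. For IRF4 these were TLE4, a Groucho family corepressor, at 0.06, TMIE at 0.07 and AIF1L at 0.07. TLE4 and TMIE were at 0 in every SEM::mock library like IRF4, and AIF1L was detected in both lines at 10.9 against 362 CPM. For IRF8 they were the potassium channel gene KCNJ2 at 0.02, the ETS factor ERG at 0.04 and WFIKKN2 at 0.05, each with 0 counts in SEM::mock. Among genes at 0 in every SEM::mock library the rule itself picks those of like level in SEM::EGR3, such as ERG at 11.7 CPM beside 11.5 CPM for IRF8.

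The closest genes to IRF2 were SLC41A2 at 0.05, CDK2AP2 at 0.05 and the homeobox gene HOXC4 at 0.07. IRF7 was followed most closely by FBXO30-DT at 0.08, MYORG at 0.09 and GPC4, a glypican, at 0.09. IRF9 had the loosest match, with AC008280.2 at 0.11, the interferon-induced helicase DDX60 at 0.13 and ZC3H10 at 0.16. DDX60 counted 15, 7 and 8 in SEM::mock and 64, 30 and 48 in SEM::EGR3, which parallels the 16, 7 and 9 and the 64, 24 and 50 of IRF9 library by library. These likenesses rest on 6 libraries in 2 groups and are descriptions.

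The protein-coding genes with listed counts whose starts lie next to each member on either side were measured to see whether differences extended along the chromosome. Other genes can lie between, and the gap was up to 587918 bases (FOXF1 beside IRF8). Of 16 flanking genes in the table, 11 were tested, with 3 higher, 4 lower and 4 not past the threshold. Next to IRF4, the phosphatase gene DUSP22 rose from 28.4 to 45.0 CPM (log2 fold change 0.66, adjusted p = 8.81e-08), while the exocyst gene EXOC2 on the other side stood at 33.8 and 30.9 CPM (-0.14, adjusted p = 0.183). Before IRF8, COX4I1, a subunit of cytochrome c oxidase, was slightly lower (-0.14, adjusted p = 0.0132), and FOXF1 beyond it had 1, 0 and 0 counts against 16, 9 and 7 and was not tested. PHRF1, whose end is 331 bases from IRF7, stood at 41.7 and 44.7 CPM (0.11, adjusted p = 0.228). CDHR5 on the other side of IRF7 had 0 counts in SEM::mock and 1, 3 and 0 in SEM::EGR3.

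Next to IRF5, the low gene ATP6V1FNB rose (1.11 to 3.58 CPM, log2 fold change 1.78) and the nuclear import receptor TNPO3 fell (184 to 125 CPM, -0.56). With 4, 4 and 10 counts in SEM::mock, ATP6V1FNB passed the filter only through SEM::EGR3, so that its call carries little weight. Beside IRF2, ENPP6 was too low to test. Beside IRF1, the carnitine transporter SLC22A5 fell by 1.17 on the log2 scale, and IL5 was too low to test. Beside IRF3, SCAF1 stood at 25.1 and 27.6 CPM (0.16, adjusted p = 0.149). Beside IRF9, the meiotic cohesin gene REC8 was at least 4.35-fold higher. REC8, with 2, 1 and 1 counts in SEM::mock, likewise passed only through SEM::EGR3, and its call carries no weight.

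Some members share bases with genes of the opposite strand, and whether strand was used in counting is not given, so that their reads cannot be told apart with certainty. The antisense RNA IRF1-AS1 overlaps IRF1 by 7094 bases and rose from 3.12 to 12.0 CPM (log2 fold change 1.95, adjusted p = 1.80e-09), while IRF1 did not pass the threshold. BCL2L12, a BCL2-related gene on the opposite strand, overlaps IRF3 by 734 bases and fell from 189 to 117 CPM (-0.70, adjusted p = 2.73e-11), opposite in direction to IRF3. An RNA within an intron of IRF2 on the same strand, AC099343.2, rose from 0.587 to 1.89 CPM (1.65, adjusted p = 0.000817). With 3, 5 and 2 counts in SEM::mock, AC099343.2 passed the filter only through SEM::EGR3, so that its test carries no weight.

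The family works within a wider pathway, for which 8 lists were examined, from the sensors upstream to the target genes. Over all tested genes the median log2 fold change was 0.03. Interferon transcripts were hardly counted. Of 9 listed ligands, 4 were in the table, IFNA1, IFNB1, IFNE and IFNL3, with at most 1 count in any library, and none was tested.

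Of the sensors, adaptors and kinases that activate IRF3, IRF5 and IRF7, 16 of 20 were tested, with 4 higher, 6 lower and 6 not past the threshold (median -0.15, and -0.21 without TLR3, which was at 0 in SEM::mock). The DNA sensor CGAS rose from 0.338 to 14.8 CPM (log2 fold change 5.33, adjusted p = 3.36e-13). With 1, 5 and 0 counts in SEM::mock, CGAS passed the filter only through SEM::EGR3, so that its test carries no weight. STING1, the adaptor that receives the CGAS signal, fell from 26.5 to 11.6 CPM (-1.19, adjusted p = 5.61e-09). TLR3, an endosomal sensor of double-stranded RNA, had 0 counts in SEM::mock and was at least 3.43-fold higher. DHX58, which encodes LGP2, a regulator of the RNA sensors, rose (2.55), and IFIH1, which encodes the RNA sensor MDA5, fell (-0.95). With 2, 2 and 6 counts in SEM::mock, DHX58 also passed the filter only through SEM::EGR3, so that its call carries no weight. IRAK1, a kinase downstream of MyD88 that acts on IRF7, fell from 249.99 to 119 CPM (-1.06, adjusted p = 1.99e-14). TBK1, the kinase that phosphorylates IRF3, did not pass the threshold (0.19, adjusted p = 0.121).

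Interferon receptors and JAK-STAT components were mostly lower or not past the threshold, with 1 higher, 5 lower and 4 not called of 10 tested (median -0.25). IFNAR1, a chain of the type I receptor, rose slightly (0.24, adjusted p = 0.0118). Both chains of the interferon-γ receptor fell, IFNGR1 from 32.7 to 17.1 CPM (-0.95, adjusted p = 5.19e-09) and IFNGR2 from 53.2 to 34.3 CPM (-0.64), as did the associated kinase JAK2 (-0.87). STAT2, which joins IRF9 in ISGF3, did not pass the threshold (-0.19, adjusted p = 0.101).

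All 10 DNA-binding partners were tested, with 4 higher and 4 lower (median -0.04), and the ETS partners of IRF4 and IRF8 moved apart. SPIB, which encodes SpiB, counted 11, 8 and 10 in SEM::mock and 617, 253 and 323 in SEM::EGR3, or 1.75 and 36.5 CPM on average (log2 fold change 4.40, adjusted p = 3.08e-17). At these SEM::mock counts SPIB needed its SEM::EGR3 counts to pass the filter, so that its call carries little weight. SPI1, which encodes PU.1, fell from 68.8 to 23.8 CPM (-1.52, adjusted p = 1.85e-14). The AP-1 partners also went in both directions, since BATF3 rose from 8.49 to 29.7 CPM (1.84) while BATF fell from 12.7 to 3.84 CPM (-1.73) and JUNB fell from 92.4 to 57.8 CPM (-0.68). MEF2C, a MADS box factor of lymphoid progenitors, rose from 25.7 to 274 CPM (3.41, adjusted p = 5.45e-22). SPIB and MEF2C also stand on the plasmacytoid dendritic cell and KMT2A fusion target marker lists, respectively.

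Among corepressors and negative regulators, 1 was higher, 3 were lower and 3 did not pass the threshold of 7 tested (median 0.00). The IRF2-binding corepressor IRF2BP1 rose (log2 fold change 0.56, adjusted p = 0.000208), and its relative IRF2BPL fell from 34.2 to 15.1 CPM (-1.17, adjusted p = 8.91e-10). SOCS1, a feedback inhibitor of JAK kinases, fell from 83.9 to 47.8 CPM (-0.81, adjusted p = 5.61e-11).

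Of 25 interferon-stimulated genes, 20 were tested, with 13 higher, 6 lower and 1 not past the threshold. Of the 13, 6 had 3 counts or fewer in every SEM::mock library and passed the filter only through SEM::EGR3, so that they had to differ. Among the 14 genes above the limit of detection in both lines, 7 were higher, 6 lower and 1 not past the threshold, with a median log2 fold change of 0.15 beside -0.01 for all 14671 such genes. With the 6 genes included the median was 0.97. The antiviral synthetase OAS1 was at least 9.30-fold higher, the XIAP-associated factor XAF1 at least 6.04-fold and IFI44 at least 5.13-fold. IFIT5, named after its values were seen, was at least 16.8-fold higher. In the opposite direction, CMPK2, a mitochondrial nucleotide kinase, fell from 114 to 36.8 CPM (-1.63, adjusted p = 1.06e-16), its genomic neighbour RSAD2, which encodes viperin, fell from 38.1 to 24.6 CPM (-0.62, adjusted p = 1.13e-06) and IFI27 fell from 5.13 to 3.37 CPM (-0.58). The summed level of the list was 499 to 519 CPM in SEM::mock and 446 to 463 CPM in SEM::EGR3, that is, lower, since several genes that fell were abundant and many that rose were low.

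Targets of IRF1 in antigen presentation and inflammation were divided, with 6 higher, 4 lower and 3 not past the threshold of 13 tested (median 0.16, and 0.12 over the 11 above the limit of detection in both lines). The inflammatory protease CASP1 rose from 0.472 to 15.1 CPM (4.91, adjusted p = 6.75e-14). With 2, 4 and 2 counts in SEM::mock, CASP1 passed the filter only through SEM::EGR3, so that its test carries no weight. The guanylate-binding protein GBP1 and NLRC5, the activator of class I HLA genes, were at least 9.79-fold and 10.8-fold higher. GBP2 (-0.73), the peptide transporter TAP1 (-0.70) and its partner TAPBP (-0.44) fell.

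Targets of IRF4 and IRF8 were tested for 9 of 12 genes, with 3 higher, 5 lower and 1 not past the threshold, and a median of -0.47. The germinal center repressor BCL6 rose from 1.42 to 5.97 CPM (log2 fold change 2.05, adjusted p = 3.21e-07), CD40, a costimulatory receptor of B cells, rose from 1.38 to 4.92 CPM (1.81) and PRDM1, the plasma cell factor Blimp-1, rose from 11.7 to 18.6 CPM (0.66). BCL6, with 8, 10 and 6 counts in SEM::mock, and CD40, with 11, 6 and 6, passed the filter only through SEM::EGR3, so that their calls carry little weight. The largest falls were those of the cystatin CST3 from 237 to 95.0 CPM (-1.32, adjusted p = 1.08e-16), of the cathepsin CTSS from 28.9 to 14.0 CPM (-1.04) and of CYBB, a subunit of the phagocyte oxidase, from 4.49 to 2.76 CPM (-0.71). The light chain gene IGKC, which IRF4 activates in B cells, had at most 1 count in any library. Of the myeloid marker list given above, 2 of 6 tested genes were higher and 3 lower, and its part in this list was not tested.

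**Figure D5:**
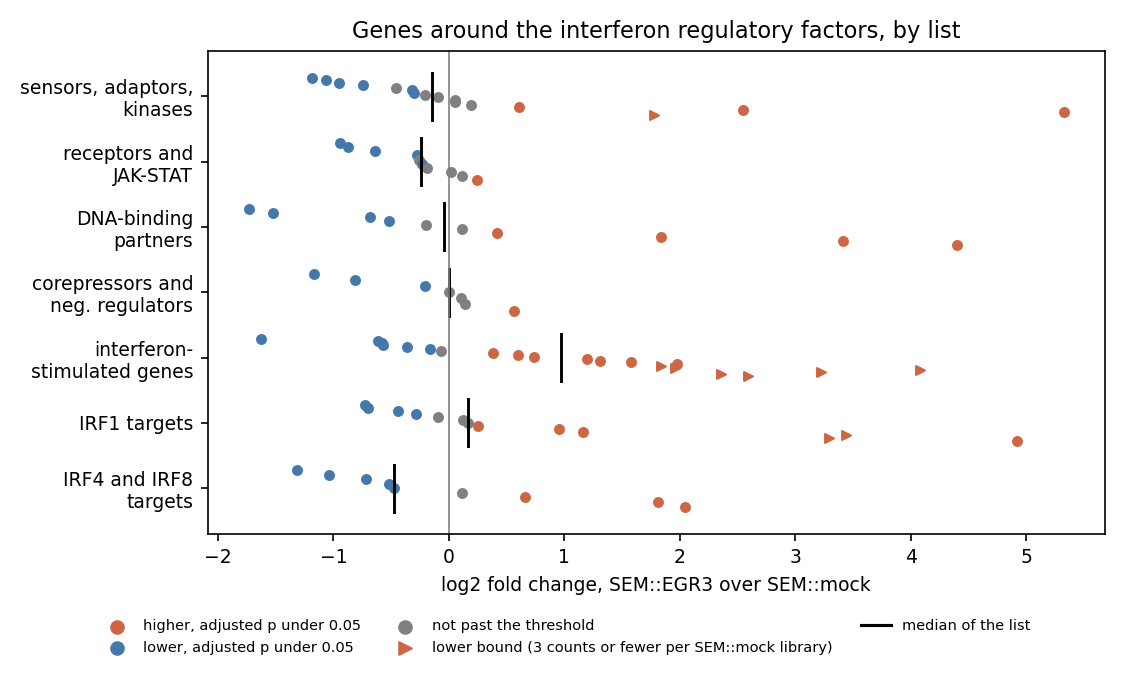
Log2 fold change (SEM::EGR3 over SEM::mock) of each tested gene of 7 pathway lists, with the median of a list as a black bar. Triangles are lower bounds for genes with 3 counts or fewer per SEM::mock library, which enter the medians. The median of the interferon-stimulated genes is 0.97 with its 6 such genes and 0.15 without them.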

How the data were processed

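Unnormalized counts were deposited by the authors for each gene, along with CPM values under the name TPM (counts scaled per library, without length correction) and size-factor normalized values, a signal scale. The CPM and signal columns were read only to identify their unit. Columns with the authors' own DESeq2 comparison (log2 fold changes, p-values and group means) were not used. The column names spell the gene ERG3 and were matched to the only other line. The submitters' processing notes name bcl2fastq, Bowtie2, HTSeq and GRCh38, while annotation and strand setting are not given in the sources used here. No per-sample column was left unused.

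Counts were compared in R 4.3.3 with edgeR 4.0.16 (filterByExpr, TMM, glmQLFit, glmQLFTest over all 6 libraries, no further term), and p-values were adjusted by Benjamini and Hochberg over 15465 genes at a threshold of 0.05. The script was tested on simulated data. Lower bounds use 3 counts per SEM::mock library, and ratios add 0.5 counts. Positions follow GENCODE release 29, which holds 97.0% of the gene identifiers.

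The members and lists were chosen with earlier results of these data known. Named genes are the 8 members, up to 3 largest rises and falls by fitted log2 fold change per pathway list among called genes with at least 20 counts on average in the higher line, the 3 most similar genes of each called member with a log2 fold change of at least 1, the flanking genes, and EGR3. TBK1, STAT2, IGKC, IFIT5, the ligands, the markers and the overlapping genes were named outside this rule, after their values were seen. Single values of a few genes are left out of the text. The planned test of the IRF4 to IRF8 ratio could not be run. Alternatives were DESeq2 1.42.0, other normalizations and filters, the replicate number as a term, and leaving out each library.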

Additional observations from a re-analysis of the deposited data

How the results depend on the processing

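The 13 alternatives, from other normalizations and filters to leaving out single libraries, kept the direction and the call of each member for which they gave a value, except IRF5. Without a filter on low counts IRF5 was tested and passed (log2 fold change 6.20, adjusted p = 1.47e-06, a fitted value against 0 counts). With at least 10 counts in every library, IRF4, IRF5, IRF8 and IRF9 drop out and have no value, so that 3 members were called, 3 of them higher, as were 6 genes of the sensor list and 11 interferon-stimulated genes. IRF1 did not pass the threshold in any of them, with log2 fold changes of 0.05 to 0.20 and adjusted p from 0.0573 to 0.677. The weakest calls were IRF3 (adjusted p up to 0.0330) and IRF9 (up to 0.0215). Leaving out a single library gave log2 fold changes of 0.17 to 0.29 for IRF3 and 0.88 to 1.55 for IRF9, with 6 members called each time. All genes called ranged from 8481 to 11968. Without normalization factors the median of all genes moved from 0.03 to 0.11.

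The replicate numbers did not pair the libraries (correlations of same-numbered deviations -0.11 to -0.03). With the replicate block 6 members were called, 6 of them higher, and IRF9 had a log2 fold change of 1.12 (adjusted p = 0.00309), among 10081 genes called. No call of a member changed with the block.

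Depth limits the 4 members with few or no counts in SEM::mock, IRF4, IRF5 and IRF8 at 0 and IRF9 at 7 to 16 per library. The counts without genes at the limit of detection were added after seeing the data. The libraries of a line differed beyond counting noise, by a chi-square per degree of freedom of 1.71 to 3.12, and were kept as separate replicates.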
